A study of Mus musculus with 6 samples.

Results

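The BCL2 family of apoptosis regulators was examined in mouse embryonic fibroblasts with and without the transcription factor gene Klf4. The members were all probes on Illumina bead arrays whose deposited gene symbol was Bcl2, Bcl2l1, Mcl1, Bax, Bak1, Bcl2l11, Bid, Bad, Bbc3 or Pmaip1. They numbered 17 probes of 10 genes, out of 46621 probes in all. The wild-type group (Klf4 +/+) held 3 samples and the null group (Klf4 -/-) held 3, all from the C57Bl/6 strain with a labelled age of 13 days, each measured on 1 array. All cells were grown in serum-containing medium and harvested close to confluence without a death stimulus or other treatment named in the labels. The labels do not describe the null allele and name no separate embryos or cultures, so the p-values reflect the scatter of these 3 samples a group, which could be technical.

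The family decides whether the outer membrane of the mitochondria is opened, the step that commits most dying cells to the intrinsic pathway of apoptosis. Bax and Bak1 are the effectors that form the pores, Bcl2, Bcl2l1 (encoding BCL-XL) and Mcl1 are pro-survival proteins that hold them in check, and the BH3-only proteins (BIM from Bcl2l11, BID, BAD, PUMA from Bbc3 and NOXA from Pmaip1) sense damage or stress and free or activate the effectors. The balance is set largely by binding between these proteins and by protein turnover, neither of which an RNA array measures.

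Klf4 itself was read by 3 probes that disagreed. Both dim probes were at 63.2 to 103 in wild-type samples and at 39.7 to 46.8, which is background, in null samples. The brightest probe, ILMN_2593684, gave 380 to 494 in wild-type and 702 to 737 in null samples (log2 fold change 0.76, adjusted p = 2.4e-05 by limma), and where each probe lies in the gene was not given in the sources used here. The fibroblast gene Vim stood at 20725 ± 302 (SD, n = 3) and 20678 ± 188 in the groups, and Col1a1 at 5313 ± 1400 and 10926 ± 1196. Of 13 tested fibroblast markers 4 rose and 2 fell (46.2% called, against 40.1% of all genes). The 4 that rose were Col1a1, Col3a1, Col5a1 and P4hb. Those that fell were Col1a2, from 169 to 135, and Pdgfra, from 988 to 551 on its brightest probe. The dimmer Pdgfra probe gave -0.06 on the log2 scale and did not pass. Summed levels of the tested fibroblast markers were 52862 to 58518 in wild-type and 65915 to 70615 in null samples. Of 6 epithelial markers, Epcam, Krt8, Krt18 and Krt19 were too dim to be tested. So were 5 of 6 leukocyte markers (all but Cd68) and 3 of 5 endothelial ones (all but Cdh5 and Kdr). Cdh5 was tested and fell from 64.6 to 53.7, near the floor. Kdr, at 104 in wild-type and 114 in null samples, did not pass. Cd68, at 242 and 265 on its brightest probe, did not pass either. Of the 4 tested neural markers, Sox2 rose from 56.1 to 74.7 on its brightest probe, and its other tested probe, ILMN_1248711, passed at 1.03 on the log2 scale. Nes, the filament gene nestin of neural progenitors, rose by at least 15.0-fold, from background at 43.8 to 810.0. Tubb3 and Gfap did not pass at log2 fold changes of -0.17 and -0.11, and Map2 and Sox10 were too dim to be tested. The summed level of the tested neural markers, by brightest probe, was 246 to 251 in wild-type and 969 to 1064 in null samples, a difference made up almost wholly by Nes. Of the sex-linked genes, Xist rose 3.70-fold on probe ILMN_2475156 and Y-linked Kdm5d fell at least 2.24-fold on probe ILMN_1224210, while the second probe of each was at background. The Xist and Kdm5d probes that changed separated the groups without overlap, so any difference in sex cannot be told apart from genotype here. The part of these differences in the results below was not tested.

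Of the BCL2 family, 2 genes rose in Klf4-null fibroblasts, the BH3-only gene Bid and the pro-survival gene Mcl1, and 1 fell, the BH3-only gene Bcl2l11. Bcl2, Bcl2l1, Bax, Bak1, Bad and Bbc3 did not pass the test, and Pmaip1 was not above background on any array. A probe was tested if its intensity exceeded the background floor of its array (54.0 to 54.2) on at least 3 of the 6 arrays, which 13 of the 17 member probes did. At an adjusted p under 0.05 by limma, 2 of these 13 rose and 1 fell, which is 23.1%. Over all 21825 probes tested, 38.9% were called, 19.0% as higher and 19.9% as lower in null samples. The groups did not overlap for 3 of the 13 member probes, against 47.3% of all tested probes. The median log2 fold change of the tested member probes was 0.07 and its median size 0.13, against -0.02 and 0.16 over all tested probes. In bulk RNA, a change in RNA per cell and a change in the share of cells that express a gene cannot be told apart.

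**Figure D1:**
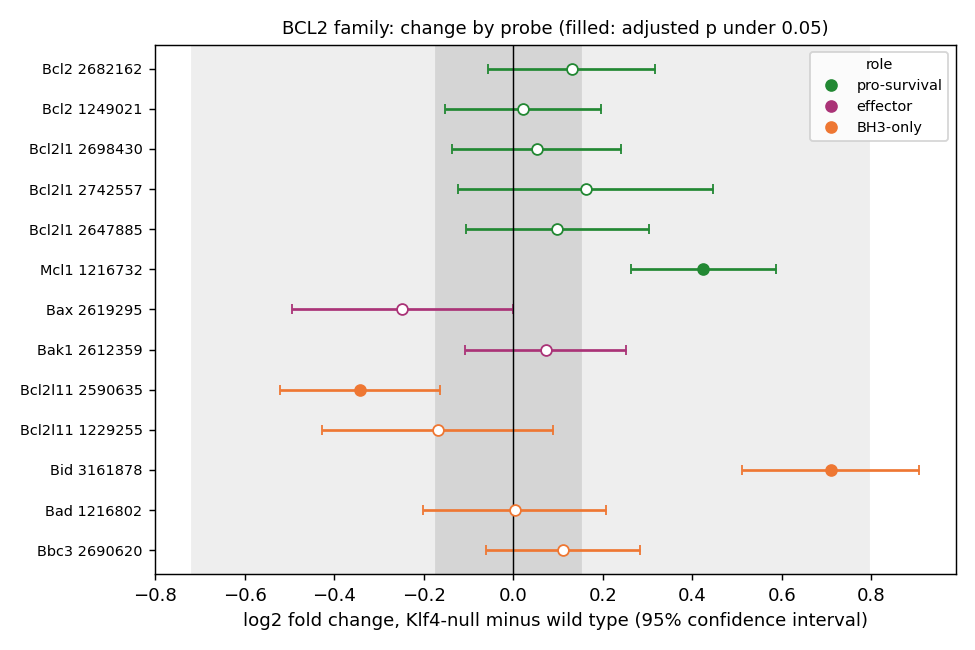
Log2 fold changes of the 13 tested probes of the BCL2 family, Klf4-null minus wild type (x axis), with 95% confidence intervals; probe numbers follow the gene names, and filled points passed an adjusted p of 0.05 by limma. The dark and light grey bands hold the middle of all tested probes, from the 25th to the 75th percentile (-0.17 to 0.15) and from the 5th to the 95th percentile (-0.72 to 0.80). Bid at 0.71, Mcl1 at 0.43 and Bcl2l11 at -0.34 lie outside the dark band and inside the light one.

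Mcl1, a short-lived pro-survival protein needed by many dividing cell types, was the pro-survival gene that passed the test. Its probe ILMN_1216732 had intensities of 1885, 1932 and 1905 on the wild-type arrays and of 2644, 2467 and 2576 on the null arrays. Every null sample was above every wild-type sample, and replicates lay close together. The means were 1907 ± 23.6 (SD, n = 3) and 2562 ± 89.6, a 1.34-fold rise (log2 fold change 0.43 with an SE of 0.08, adjusted p = 4.0e-04 by limma). This change was larger in size than that of 77.5% of all tested probes.

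Bcl2, the founding pro-survival member, was read by a pair of probes well above background. Probe ILMN_2682162 gave 289, 311 and 260 in wild-type samples and 300, 309 and 330 in null samples, and the groups overlapped. Its log2 fold change was 0.13 with a 95% confidence interval from -0.06 to 0.32 (adjusted p = 0.279 by limma). On probe ILMN_1249021 the wild-type values were 159, 177 and 164 and the null values 177, 171 and 160, with a log2 fold change of 0.02 (interval -0.15 to 0.20). Another 2 probes, deposited under a clone name that is now a synonym of Bcl2 and so outside the member list, were at background on every array.

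Bcl2l1, whose product BCL-XL is a mitochondrial guard of Bax and Bak1, had 3 tested probes, and none passed. The brightest, ILMN_2698430, gave 147, 155 and 163 in wild-type samples and 179, 151 and 153 in null samples. Null replicate 1 lay above all other samples, while the remaining null values fell within the wild-type range. Its log2 fold change was 0.05 (interval -0.14 to 0.24, adjusted p = 0.706 by limma). Probe ILMN_2742557 gave 55.4, 77.4 and 85.1 against 86.5, 80.2 and 73.7, so that wild-type replicate 1 alone lay low, near the floor (log2 fold change 0.16, interval -0.12 to 0.45). The third probe, ILMN_2647885, was above the floor on 2 of 3 arrays in each group and gave 0.10 (interval -0.11 to 0.30). All 6 tested pro-survival probes had positive log2 fold changes, also under each other scaling tried, but only that of Mcl1 passed. Leaving out 1 sample turned the sign of 3 of the others, and probes of 1 gene are not independent.

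The effectors gave no call. Bax, whose product moves from the cytosol to mitochondria before it forms pores, had intensities of 687, 819 and 626 in wild-type samples and of 525, 585 and 686 in null samples on probe ILMN_2619295. Null replicate 3 lay within the wild-type range, and the other null samples lay below it. The means of 711 ± 98.7 and 598 ± 81.4 (SD, n = 3) differed by a log2 fold change of -0.25 (SE 0.11, interval -0.49 to -0.001), with an unadjusted p of 0.0492 and an adjusted p of 0.11 by limma. Without wild-type replicate 3 the adjusted p was 0.0424 by limma (log2 fold change -0.33) and without null replicate 3 it was 0.0321 (-0.35). Other samples left out made the change smaller. Without wild-type replicate 2 it was -0.14 (adjusted p = 0.388) and without null replicate 1 it was -0.16 (adjusted p = 0.354). Both the size of the Bax change and its call thus turned on single samples.

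Bak1, the effector that resides on the mitochondrial membrane, was dimmer. Probe ILMN_2612359 gave 93.5, 91.9 and 82.4 in wild-type samples and 99.4, 92.3 and 89.6 in null samples. The groups overlapped, and the log2 fold change was 0.07 (interval -0.11 to 0.25, adjusted p = 0.564 by limma).

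**Figure D2:**
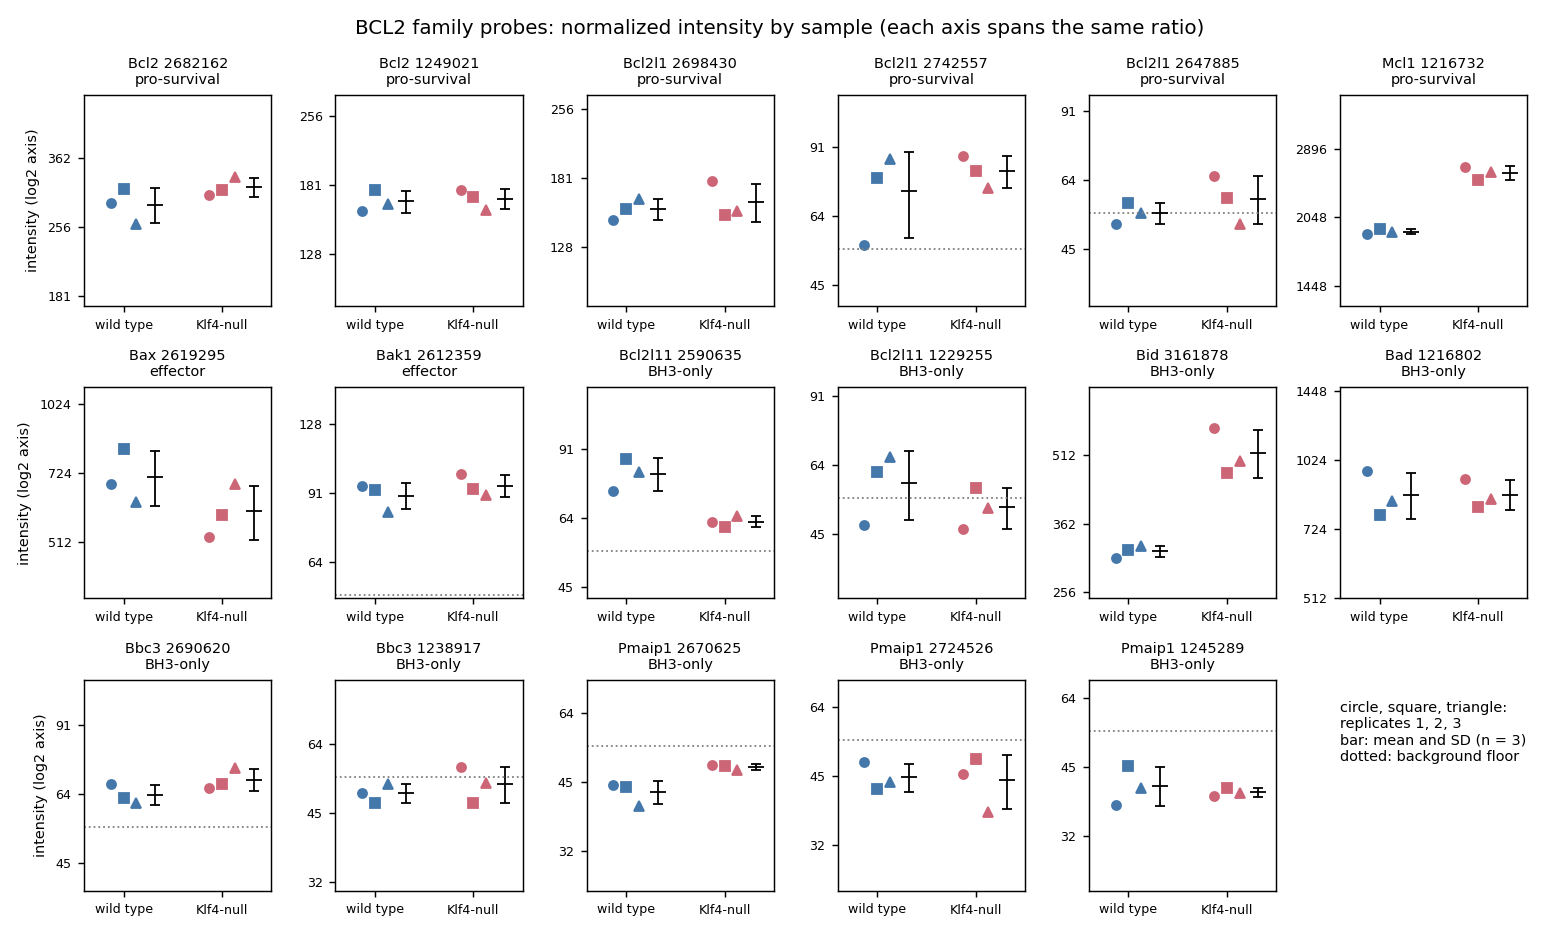
Normalized intensity (y axis, log2 scale, spanning the same ratio in each panel) of all 17 probes of the BCL2 family in each of 3 wild-type (blue) and 3 Klf4-null (red) samples, with the group mean and SD (n = 3) as a bar and the highest background floor of the arrays as a dotted line. The groups separate above the floor for Mcl1, Bid and the brighter Bcl2l11 probe, while the 3 probes of Pmaip1 lie under the floor in every sample.

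Among the BH3-only genes, Bid showed the largest change of the family. BID links death receptors to mitochondria, as caspase-8 cleaves it into a fragment that activates Bax and Bak1. Probe ILMN_3161878 had intensities of 305, 317 and 323 in wild-type samples and of 586, 468 and 497 in null samples. The null samples were all above the wild-type samples and more spread, with null replicate 1 the highest. The means were 315 ± 9.25 and 517 ± 61.8 (SD, n = 3), a 1.64-fold rise (log2 fold change 0.71 with an SE of 0.09, interval 0.51 to 0.91, adjusted p = 2.6e-05 by limma). Without null replicate 1 the log2 fold change was 0.62, the lowest of the values with 1 sample left out. A change of this size exceeded that of 89% of all tested probes.

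Bcl2l11, whose product BIM binds all pro-survival members and is held low in growing cells, fell on its brighter probe. ILMN_2590635 gave 73.0, 86.0 and 80.5 in wild-type samples and 62.8, 61.2 and 64.4 in null samples. The null samples lay close together, below every wild-type sample and above the floor. The means were 79.8 ± 6.49 and 62.8 ± 1.62 (SD, n = 3), a 1.27-fold fall (log2 fold change -0.34 with an SE of 0.08, adjusted p = 0.00432 by limma). The dimmer probe, ILMN_1229255, gave 47.3, 61.6 and 66.5 against 46.5, 57.1 and 51.5, was above the floor on 2 wild-type arrays and 1 null array, and did not pass (log2 fold change -0.17, adjusted p = 0.314). It passed without wild-type replicate 1, its lowest wild-type sample, whose removal can only enlarge a fall (-0.31, adjusted p = 0.034 by limma). Without wild-type replicate 3 its log2 fold change was -0.07 (adjusted p = 0.717), and without null replicate 1 it was -0.10 (adjusted p = 0.642). As both probes lie near background, these ratios may understate any change.

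Bad, which growth factor signalling keeps phosphorylated and inactive, was bright and level. Its probe ILMN_1216802 gave 969, 778 and 835 in wild-type samples and 931, 807 and 842 in null samples. The ranges coincided, and the log2 fold change was 0.00 (interval -0.20 to 0.21, adjusted p = 0.988 by limma).

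Bbc3 and Pmaip1, both classic p53 targets, were at or near background. Bbc3 probe ILMN_2690620 gave 67.2, 62.7 and 61.2 in wild-type samples and 65.9, 67.4 and 73.1 in null samples (log2 fold change 0.11, interval -0.06 to 0.28, adjusted p = 0.325 by limma). The other Bbc3 probe was above the floor on 1 of 6 arrays. The Pmaip1 probes gave 37.4 to 48.5 in wild-type and 37.7 to 49.4 in null samples, all below the floor. On 1 of them, ILMN_2670625, the null values of 49.4, 49.2 and 48.0 lay above the wild-type values of 44.7, 44.1 and 40.2, but with every value under the floor no level or change can be given.

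The changes of the called genes were set against each sample in turn. Mcl1, Bid and the brighter Bcl2l11 probe passed with each of the 6 samples left out, with log2 fold changes of 0.40 to 0.45, 0.62 to 0.78 and -0.41 to -0.29. None of the 3 passed a test against a change of 1.5-fold (limma treat), which 1766 of all tested probes passed.

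**Figure D3:**
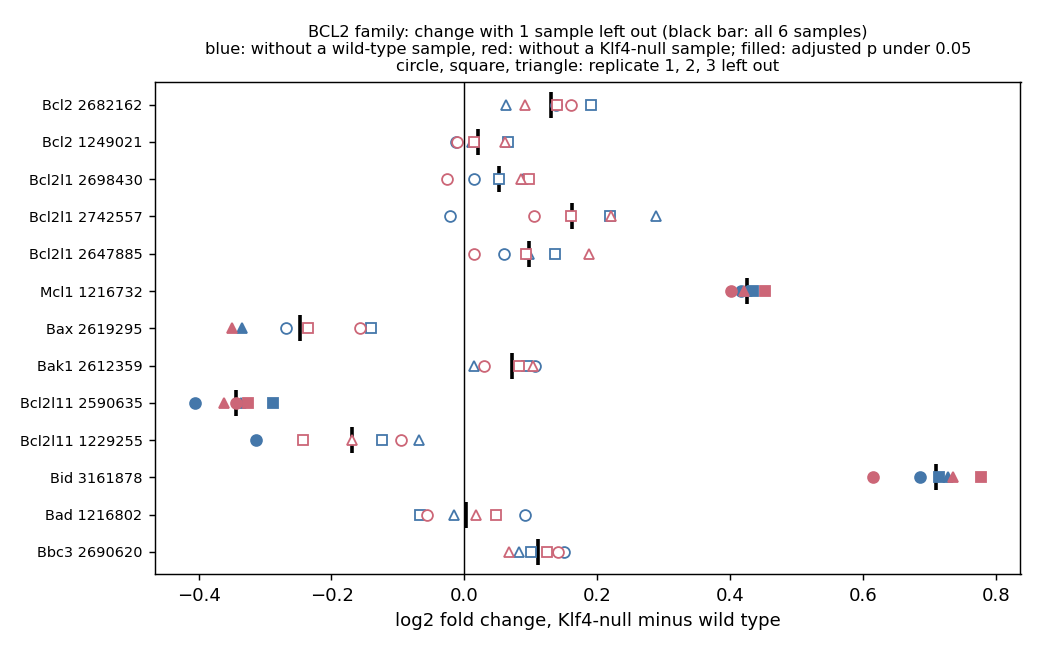
Log2 fold change (x axis, Klf4-null minus wild type) of each tested BCL2 family probe with 1 sample left out at a time, blue for a wild-type and red for a Klf4-null sample, with the value from all 6 samples as a black bar; filled symbols passed an adjusted p of 0.05 by limma. All 6 symbols are filled for Mcl1, Bid and the brighter Bcl2l11 probe, 2 are filled for Bax and 1 for the dimmer one.

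The promoter windows of the 3 genes that changed are shown because factors of the Kruppel-like family bind CACCC and related GC-rich elements. They are RefSeq sequences on build GRCm38.p6, from 250 bases before to 50 after an annotated start, written on the gene's strand from 5′ to 3′. Capitals mark CACCC or its reverse complement GGGTG. The windows are Mcl1 at chr3:95658471-95658770 on the plus strand, Bid at chr6:120916775-120917074 on the minus strand, and Bcl2l11 at chr2:128125788-128126087 and chr2:128127325-128127624 on the plus strand.
Mcl1: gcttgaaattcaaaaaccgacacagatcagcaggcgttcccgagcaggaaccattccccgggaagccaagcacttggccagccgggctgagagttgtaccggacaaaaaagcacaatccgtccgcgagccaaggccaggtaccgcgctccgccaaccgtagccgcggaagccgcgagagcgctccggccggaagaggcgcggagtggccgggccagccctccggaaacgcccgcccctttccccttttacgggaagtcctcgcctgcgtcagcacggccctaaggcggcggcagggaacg
Bid: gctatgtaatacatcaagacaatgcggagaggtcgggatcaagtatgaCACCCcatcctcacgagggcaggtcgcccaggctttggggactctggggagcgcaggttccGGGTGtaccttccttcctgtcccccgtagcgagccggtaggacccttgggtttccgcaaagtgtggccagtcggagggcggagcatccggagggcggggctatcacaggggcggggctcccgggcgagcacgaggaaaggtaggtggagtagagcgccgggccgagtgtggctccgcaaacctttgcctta
Bcl2l11 window 1: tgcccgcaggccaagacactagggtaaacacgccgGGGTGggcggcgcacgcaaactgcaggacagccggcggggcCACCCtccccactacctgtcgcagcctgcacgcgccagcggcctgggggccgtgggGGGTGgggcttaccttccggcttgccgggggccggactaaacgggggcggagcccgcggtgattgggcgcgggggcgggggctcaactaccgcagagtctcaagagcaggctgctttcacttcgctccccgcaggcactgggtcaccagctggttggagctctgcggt
Bcl2l11 window 2: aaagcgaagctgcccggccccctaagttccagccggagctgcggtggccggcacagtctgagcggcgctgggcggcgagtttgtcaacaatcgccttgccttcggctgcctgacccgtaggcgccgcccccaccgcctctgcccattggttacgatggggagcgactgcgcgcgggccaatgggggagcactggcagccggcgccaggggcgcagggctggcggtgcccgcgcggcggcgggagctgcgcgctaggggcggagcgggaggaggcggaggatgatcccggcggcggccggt

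The CACCC element, searched on both strands, occurred at 2 places in the Bid window, at 3 in the first Bcl2l11 window, and at 0 in the second Bcl2l11 window and in that of Mcl1. One of the Bcl2l11 matches overlaps a match of the GC box GGGCGG, which was found at 3 places in each window of Bid and Bcl2l11 and at 1 in that of Mcl1. Over the family, 9 genes had 15 windows, of which 10 held CACCC and 10 held GGGCGG. Among all 32851 promoter windows, 57.5% held CACCC and 35.7% held GGGCGG. Genes with CACCC in a window included Bid, which rose, Bcl2l11, which fell, and Bcl2l1, Bax, Bad and Bbc3, which did not pass. A match is a description of the letters and not a binding site.

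A wider circle of BCL2-related genes was also examined. For these lists a gene was read by its brightest tested probe, and 40.1% of the 16213 genes tested were called, 19.3% as higher and 20.8% as lower. Of 20 listed genes 10 were tested, 0 rose, 3 fell and 7 did not pass (median log2 fold change -0.08, against -0.03 over all genes). The 30.0% called lay below the 40.1% of all genes, and the count lay near the background for a list of this size. The 3 that fell were Bnip1, Bnip2 and Bnip3l, named for binding to the viral BCL2 relative E1B 19K or to BCL2 rather than for a place in the core family. Bnip1, which acts in membrane traffic at the endoplasmic reticulum, gave 494, 549 and 421 in wild-type samples and 308, 286 and 294 in null samples. It fell 1.64-fold, with the groups well apart (log2 fold change -0.71 with an SE of 0.10, adjusted p = 3.8e-05 by limma).

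Bnip2 fell 1.40-fold on its brightest probe, from 1082 ± 59.6 to 776 ± 22.5 (SD, n = 3, adjusted p = 1.9e-04 by limma), and its dim probe ILMN_1229814 gave -0.06 on the log2 scale. Bnip3l, a receptor that directs mitochondria to autophagy, gave 1048, 1063 and 1070 in wild-type samples and 881, 846 and 866 in null samples, a 1.23-fold fall (adjusted p = 0.0051). The 7 genes that did not pass were Bcl2l2, encoding the pro-survival BCL-W, the effector-like Bok, Bcl2l12, Bcl2l13, the Bax-binding Moap1, the co-chaperone Bag1 and Bcap31 of the endoplasmic reticulum, with log2 fold changes of -0.13 to 0.17. The BH3-only genes Bik, Bmf and Hrk, the pro-survival Bcl2l10, Bcl2a1a and Bcl2a1b, and Bcl2l14, Bcl2l15 and Bnip3 were too dim to be tested, and Bcl2a1d was not analysed here.

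Downstream of the mitochondria, 21 genes of the apoptosome, caspases, inhibitors of apoptosis (IAPs) and VDAC channels were listed, of which 18 were tested. Of these 4 rose, 4 fell and 10 did not pass (median log2 fold change -0.05), and the 44.4% called lay near the 40.1% of all genes. Vdac2, a channel of the outer mitochondrial membrane that also holds Bak1, fell 1.60-fold, from 2536 ± 279 to 1577 ± 71.04 (SD, n = 3, log2 fold change -0.68 with an SE of 0.09, adjusted p = 3.0e-05 by limma). Casp9, the initiator caspase activated on the apoptosome, gave 299, 284 and 297 in wild-type samples and 185, 197 and 192 in null samples. It fell 1.53-fold (log2 fold change -0.62 with an SE of 0.08, adjusted p = 1.4e-05), while its dimmer probe ILMN_1255180 gave -0.15 and did not pass.

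Casp6, an executioner caspase, fell 1.25-fold (adjusted p = 0.00746 by limma), while its dimmer probe gave -0.00 on the log2 scale and did not pass. Apaf1, the scaffold of the apoptosome, rose 1.23-fold, the IAP antagonist Htra2 1.22-fold and Birc5 (survivin), which serves mitosis as well as caspase inhibition, 1.20-fold (adjusted p = 0.0355, 0.047 and 0.0217 by limma). The groups overlapped for Apaf1 and Htra2, and the further tested probes of Apaf1, Htra2 and Birc5 did not pass. Cytochrome c (Cycs), Diablo, Xiap and Vdac1 did not pass. The count of 8 dropped to 4 without null replicate 2, to 5 without null replicate 3, and to 5 with all tested probes of a gene averaged.

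The extrinsic pathway feeds into the family through Bid. Of 19 listed death receptor genes and adaptors 17 were tested, of which 5 rose, 4 fell and 8 did not pass (52.9% called, against 40.1% of all genes, median log2 fold change 0.02), so that the count in either direction lay near the background for a list of this size. Casp8, the protease that cleaves BID, gave 564, 469 and 567 in wild-type samples and 762, 725 and 699 in null samples. It rose 1.37-fold with no overlap between the groups (log2 fold change 0.46 with an SE of 0.09, adjusted p = 9.8e-04 by limma). Tnfrsf10b, the mouse receptor for the death ligand TRAIL, rose 1.39-fold (adjusted p = 1.9e-04), and its further probes ILMN_1230700 and ILMN_2460875 passed at log2 fold changes of 0.28 and 0.60. Tnfaip3, a feedback inhibitor of TNF signalling, rose 1.52-fold and Dap 1.37-fold (adjusted p = 1.6e-05 and 2.3e-04), and Traf2 was the remaining gene that rose.

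On the lower side, Tnfrsf1a, the main TNF receptor, fell 1.31-fold (adjusted p = 0.00235 by limma) and its adaptor Tradd fell 1.36-fold (adjusted p = 0.0138), with -0.56 on the log2 scale on the second Tradd probe, ILMN_2505100. Tnfrsf21 fell at least 1.22-fold, to background on every null array. Cflar, the inhibitor that competes with Casp8 at the receptor, fell 1.26-fold on its brightest probe (adjusted p = 0.0145), with 0.06 on probe ILMN_2489530, which did not pass. The second probe of Tnfrsf1a gave -0.01 and did not pass. The receptor Fas did not pass on its brightest probe (0.02 on the log2 scale, adjusted p = 0.868 by limma). Its other tested probe, ILMN_2479290, gave 0.23 and did not pass.

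Of 30 listed genes that act upstream of the family 23 were tested. Of these 10 rose, 3 fell and 10 did not pass (median log2 fold change 0.14). The share called was 56.5%, against 40.1% of all genes (19.3% higher and 20.8% lower). Leaving out 1 sample at a time gave 9 to 11 calls in this list, against 13 with all samples. Ddit3, encoding the stress factor CHOP, gave 477, 487 and 478 in wild-type samples and 996, 987 and 1001 in null samples, a 2.07-fold rise (log2 fold change 1.05 with an SE of 0.07, adjusted p = 4.4e-08 by limma). Trib3, a pseudokinase induced by CHOP, rose 1.62-fold, and its other tested probes, ILMN_1244279 and ILMN_1252762, passed as well at log2 fold changes of 0.96 and 0.79. Foxo1, a transcription factor restrained by AKT, rose 1.90-fold, from 91.96 ± 7.44 to 174 ± 15.3 (SD, n = 3, adjusted p = 1.6e-06), and Pim3, a survival kinase that phosphorylates BAD, rose 1.74-fold (adjusted p = 3.5e-06).

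The other 6 genes that rose were Trp53, Trp53inp1, Foxo3, Atf4, Jun and Ywhaz, with log2 fold changes of 0.26 to 0.37, named beyond the fixed rule after their values were seen. The groups overlapped for Trp53inp1. The Ywhaz probe lay near the floor, with means of 57.2 in wild-type and 73.3 in null samples. For Trp53, which encodes p53, the brightest probe gave 0.30 (adjusted p = 0.0223 by limma) and probes ILMN_1226352 and ILMN_1231006 gave 0.29 and 0.21, of which the latter did not pass. The 3 that fell were the stress kinases Mapk8 (JNK1) and Mapk14 (p38 alpha), by 1.26-fold and 1.19-fold (adjusted p = 0.011 and 0.0334), and Fbxw7, a ubiquitin ligase subunit that targets MCL1 for degradation, by 1.23-fold (adjusted p = 0.00621). Among the further Mapk8 probes, ILMN_2456617 passed at -0.23 on the log2 scale. ILMN_1214761 and ILMN_1239233 gave -0.19 and -0.15 and did not pass.

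**Figure D4:**
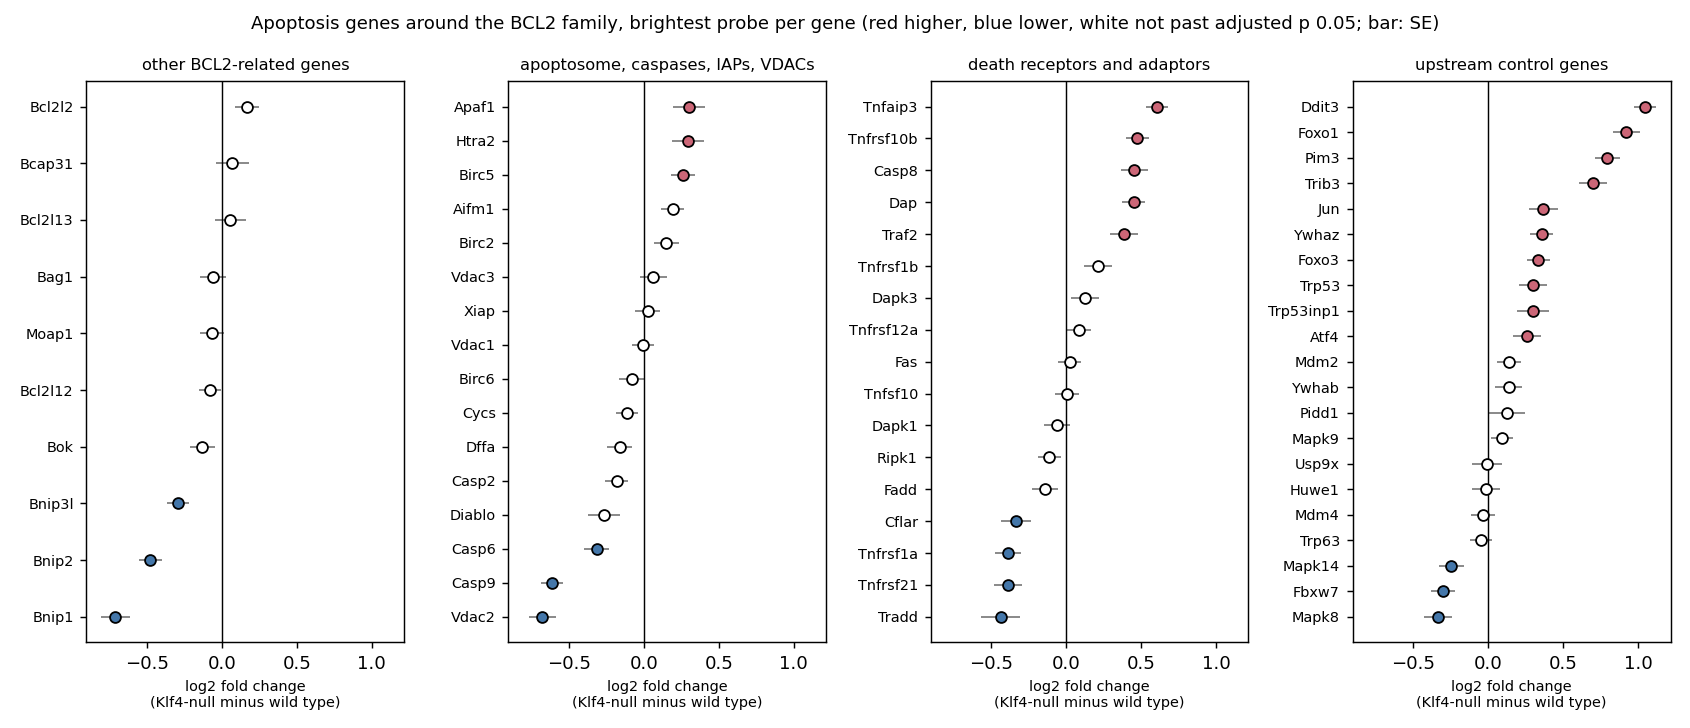
Log2 fold change (x axis, Klf4-null minus wild type) with its SE for the reported genes of 4 lists around the BCL2 family, each read by its brightest tested probe; red points passed the test as higher, blue as lower, and white did not pass an adjusted p of 0.05 by limma over all genes. The panels show 0 higher and 3 lower genes of the first list, 3 and 3 of the second, 5 and 4 of the third, and 10 and 3 of the fourth, with Ddit3 highest at 1.05 and Bnip1 lowest at -0.71.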

How the data were processed

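Biotinylated cRNA from total RNA was measured on Illumina bead arrays, per the labels' protocols. The deposited table gives 1 linear intensity per probe and array, and the authors had normalized these intensities between arrays, as array medians of 51.7 to 51.8 and equal lowest values of 25.8 show. The sources used here do not give the method, the software or the treatment of background. A second deposited table supplied gene symbols only, since its 12 columns of signals and detection p-values match no sample's labels. Symbols were updated through RefSeq (GRCm38.p6). All 17 member probes had current symbols.

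The background floor of an array was the 95th percentile of the values below the mode of its log2 intensities, mirrored about that mode. Log2 intensities of all 6 arrays were fitted with limma 3.58.1 in R 4.3.3 (lmFit, eBayes, no covariates, 2-sided), with Benjamini-Hochberg adjustment over all 21825 tested probes, or over the brightest tested probe of 16213 genes for lists. At least N-fold is the brighter group's mean log2 value against the dimmer group's mean of the higher of floor and signal. The procedure was tested on simulated data, and the alternatives tried were other scalings, filters, variance estimates and thresholds, the replicate block and samples left out. Within lists, named genes were up to 4 higher and 4 lower ones of largest change, and every tested gene of the BCL2-related list. A few list genes enter the counts but are not reported here by name. The members and lists were chosen with earlier results of these data known. With 3 arrays a group, their number limits the precision. Replicate numbers are shared between groups but were not treated as pairs. Deviations of same-numbered arrays from their group means correlated at -0.02, 0.05 and -0.23, which shows no pairing but cannot exclude one.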

Additional observations from a re-analysis of the deposited data

How the results depend on the processing

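With log2 of the value plus 16, quantile normalization, normexp correction, median scaling, an intensity trend, either filter on dim probes or each probe's own variance, the same 3 member probes passed, and of 206 combinations of a tested member probe and an alternative 200 stayed on their side of the threshold. The test against 1.5-fold (limma treat) lowered the counts of calls to 1766 over all probes, 0 among members, 0 among BCL2-related genes, 0 among apoptosome, caspase and IAP genes, 0 among death receptor genes and 2 among upstream genes. With each probe's own variance, 5 apoptosome, caspase and IAP genes, 5 death receptor genes and 7 upstream genes were called, and with probes of a gene averaged 5 of the first list were. Leaving out 1 sample at a time gave 4 to 7 calls in that list, 3 to 4 among members and 7174 to 8248 over all probes. The replicate block gave 3 calls among members and 8052 over all probes, and changed no member's call. The numbers showed no pairing, as 0 of 3 wild-type arrays correlated best with the null array of its own number. So few arrays cannot exclude a pairing. Dim probes such as those of Bcl2l11 and Bbc3 lie near background, where ratios are compressed.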
